A study of Salmo salar with 20 samples.

Results

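The genes described here serve protein digestion, amino acid metabolism and transport in the distal intestine of Atlantic salmon. They come from the sections on proteases, amino acid metabolism and transporters in the study's list of differentially expressed genes (DEG) of fish fed pea protein concentrate with saponins (PPC + S). The files give probes without gene names. Each of the 63 entries was therefore tied to the 1 probe whose fold change and SE over the 4 PPC + S fish, in the authors' processed values, equalled the listed values within 0.0051. This tied 59 of the 63 entries, out of 21322 probes on the array, and every name below rests on that match. They were 16 proteases, 22 entries of amino acid metabolism and 21 transporters, of which 53 are listed as down-regulated and 6 as up-regulated. Aspartyl aminopeptidase, cathepsin M and calcium activated chloride channel 2 matched several probes and glutaminase shared its probe with an entry of another section, so these 4 were left out. With a tolerance of 0.01, 51 entries could still be tied to 1 probe, and the rest of the 59 no longer could. The wider tolerance keeps every earlier match, so the 51 had to keep their probe, and nothing is read from that.

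The entries were thus chosen by their measured change in PPC + S fish, and their values there are a description with no test. The study's limit was a change over 1.6-fold. In the values used here all 59 entries were beyond it, the closest being adenylosuccinate synthase like 2 at 1.66-fold lower (2.93-fold at a normexp offset of 0, the constant added in the background correction) and aspartate aminotransferase, mitochondrial at 1.68-fold lower.

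Post smolts of 270 g were fed for 80 days on 1 of 5 plant protein sources with soybean saponins at 2 g/kg. These were pea protein concentrate (PPC + S), corn gluten (CG + S), horsebean meal (HBM + S), rapeseed meal (RSM + S) and sunflower meal (SFM + S). RNA of 4 fish per diet was set on 2-colour arrays, 20 in all, against 1 RNA pool of 12 fish on that protein source without saponins, so each value is a log2 ratio of 1 fish over that pool. A negative value means less RNA in the saponin-fed fish. The pool gives no spread of the control fish, and the 4 fish of a diet came from 2 tanks, 2 from each, without the tank of a fish being named. The 4 arrays of a diet shared a slide of their own, so that slide and diet cannot be told apart.

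Labels and methods give Cy5 for each fish and Cy3 for each pool, but the ratios of fish 3 and 4 of all 5 diets ran opposite to the authors' processed values. These 10 arrays were turned, against the dyes as stated. All directions given for fish 3 and 4, and all means over the 4 fish of a diet, rest on this. Counts in the mean of the other diets are also given for arrays of 1 direction. In size, Pearson's r between an array and its best matching column of the authors' values, across 17348 spots, was 0.993 to 0.998. Fish numbers are those of the scanner files. The best matching column had the same diet for all 20 arrays and the same fish number for 8. Of the 21322 probes, 17143 were bright enough to test, and all 59 entries were among them. In both channels of all 20 arrays 58 of them were well above background, the exception being L-pipecolic acid oxidase in 1 PPC + S fish, and none was saturated.

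In the intestine of vertebrates, brush border and cytosolic peptidases split dietary peptides, and sodium-, proton- and exchange-driven carriers of the apical membrane take up amino acids, small peptides and sugars. Enterocytes also break down part of the absorbed amino acids, using transaminases, oxidases and dehydrogenases. In the salmon distal intestine enterocytes take up intact protein into large vacuoles, where lysosomal cathepsins and carboxypeptidases digest it. The roles named below are those known in mammals.

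In PPC + S fish the 15 proteases listed down had a median of -1.71 on the log2 scale (entry means -2.65 to -0.95), the 21 entries of amino acid metabolism -1.18 (-4.41 to -0.73) and the 17 transporters -1.63 (-3.57 to -0.77). The 6 entries listed up had a median of 1.07 (0.79 to 1.23). The median over all probes tested was 0.00. Cysteine dioxygenase, aquaporin-8 and the neutral amino acid transporter B0 had the lowest means of the 59. With a normexp offset of 0 in place of 50, L-pipecolic acid oxidase (-3.95) stood second, and lactase-phlorizin hydrolase preproprotein and B0 had the same mean (-3.16). With the dyes as stated the lowest was B0, and the mean of cysteine dioxygenase was -0.33. The mean had the listed direction in 59 of 59 entries, and every single fish did in 57, the exceptions being diamine acetyltransferase 2 in fish 3 (0.06) and sodium-dependent phosphate transport protein 2A in fish 4 (0.05). The entries were chosen on these arrays and the share of all probes was not taken, so nothing is read from these 2 counts. In a bulk sample of intestine, fewer cells of a type and less RNA per cell cannot be told apart.

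All 4 PPC + S fish lay below all 16 fish of the other diets in 30 of the 53 entries listed down, against 2.51% of all probes tested. They lay above all 16 in 3 of the 6 listed up, against 2.28% of all probes. These counts include the contrast the entries were chosen on, and nothing is read from them. The separated entries were 10 of 15 proteases, 12 of 21 entries of amino acid metabolism and 8 of 17 transporters listed down. The plot of single fish shows where the ranges met.

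**Figure D1:**
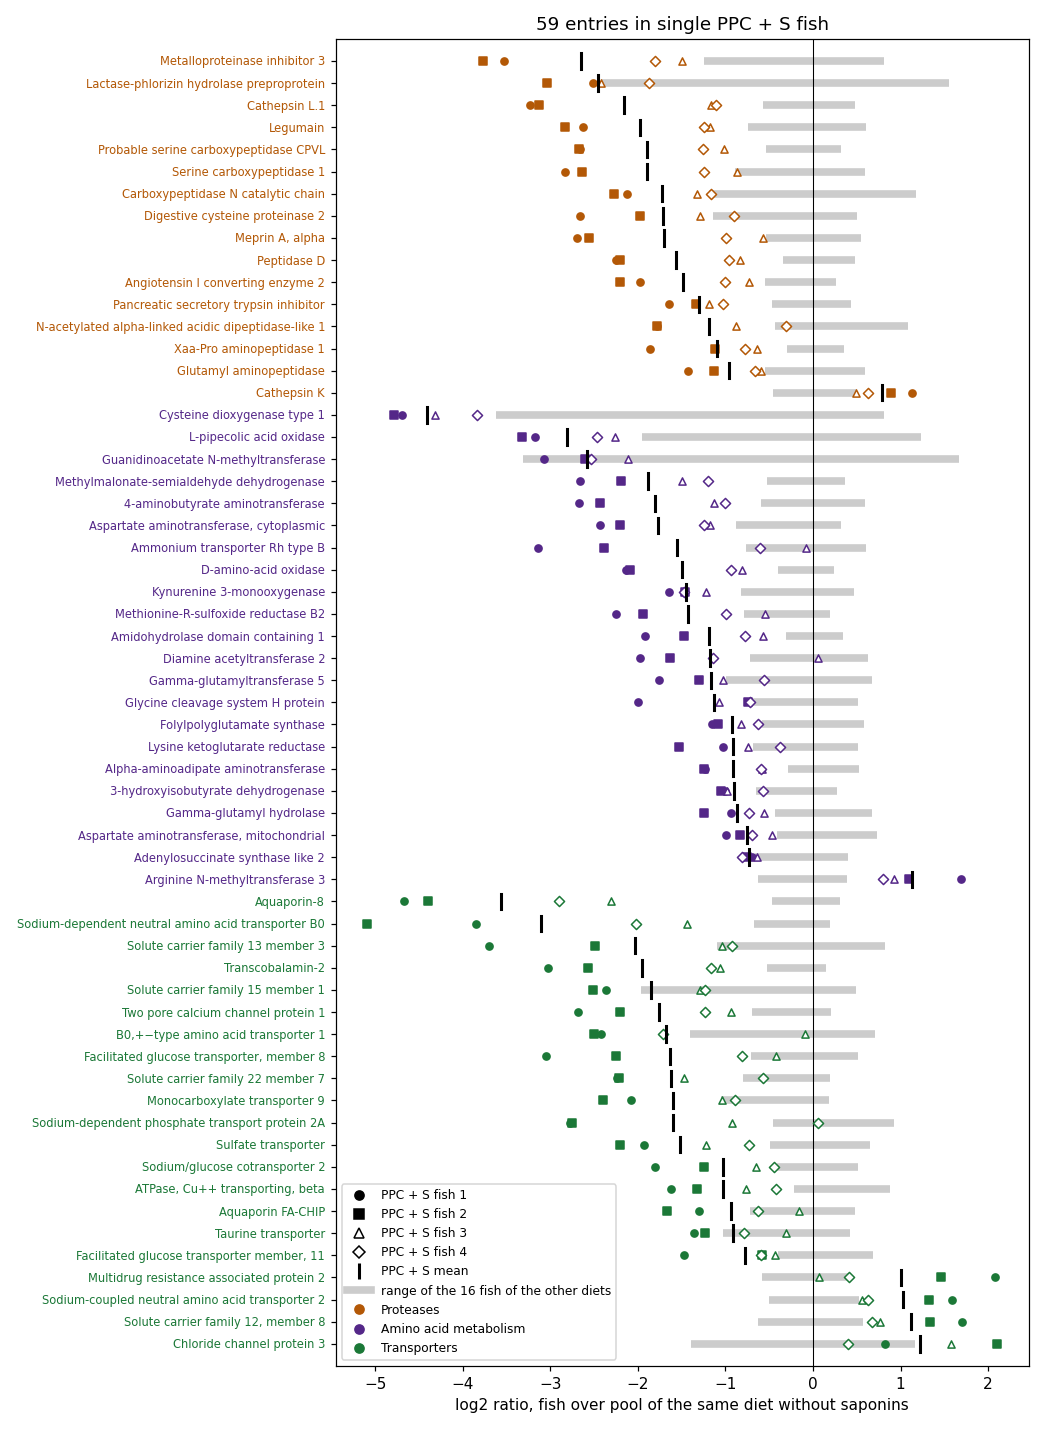
Log2 ratio of fish over pool for the 59 entries (rows, coloured by section, ordered by PPC + S mean) in the 4 PPC + S fish, with the PPC + S mean as a black bar and the range of the 16 fish of the other diets in grey. Filled symbols (fish 1 and 2) lie farther from 0 than open ones (fish 3 and 4) in nearly all rows, and cysteine dioxygenase type 1 lies farthest left with a mean of -4.41.

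Among the proteases, the lowest mean was that of metalloproteinase inhibitor 3, which blocks matrix metalloproteinases and is no protease itself. Its log2 ratios were -3.53, -3.77, -1.50 and -1.81 in PPC + S fish 1 to 4, a mean of -2.65 ± 1.16 (SD, n = 4), or 6.28-fold lower than the pool. The other inhibitor, pancreatic secretory trypsin inhibitor, had a mean of -1.30 ± 0.26 (SD, n = 4), and carboxypeptidase N catalytic chain, a peptidase of blood plasma, had -1.72 ± 0.56 (SD, n = 4). All 4 fish were low in each of the 3.

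The peptidases of the brush border and cytosol were also low. Lactase-phlorizin hydrolase preproprotein, a brush border disaccharidase that the study lists with the proteases, had -2.51, -3.04, -2.42 and -1.87 in PPC + S fish 1 to 4 (mean -2.46 ± 0.48, SD, n = 4), and the mean was -3.16 at a normexp offset of 0. All 4 fish were low, and the values of fish 1 and 3 were close. The remaining members were meprin A, alpha (mean -1.70), peptidase D, which splits dipeptides that end in proline (-1.56), angiotensin I converting enzyme 2 (-1.48), the dipeptidase-like protein NAALADL1 (-1.19), Xaa-Pro aminopeptidase 1 (-1.10) and glutamyl aminopeptidase (-0.95). Angiotensin I converting enzyme 2 also holds the protein of the carrier B0 at the apical membrane. The RNA of that carrier was among the lowest of the transporters, and a link between their RNA levels was not tested.

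The lysosomal proteases listed down had means within a narrow band of -2.16 to -1.71. Cathepsin L.1, an endopeptidase, had -3.23, -3.13, -1.16 and -1.11 in PPC + S fish 1 to 4 (mean -2.16 ± 1.18, SD, n = 4). Legumain, which cuts after asparagine and activates cathepsins, had -2.63, -2.84, -1.17 and -1.25 (mean -1.97 ± 0.88, SD, n = 4). In both, fish 1 and 2 were far below fish 3 and 4, which in turn lay below the 16 fish of the other diets. Probable serine carboxypeptidase CPVL (mean -1.90), serine carboxypeptidase 1 (-1.90) and digestive cysteine proteinase 2 (-1.71) stood close to them. Cathepsin K, the collagen-degrading member of the same family, ran the other way, with 1.13, 0.89, 0.49 and 0.63 in PPC + S fish 1 to 4 (mean 0.79 ± 0.28, SD, n = 4). Its lowest PPC + S fish overlapped with the other diets, whose highest fish had 0.50.

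In amino acid metabolism, the lowest means belonged to enzymes of sulfur amino acids, creatine and lysine. Cysteine dioxygenase type 1 oxidises cysteine in the first step towards taurine. It had -4.69, -4.78, -4.32 and -3.84 in PPC + S fish 1 to 4, a mean of -4.41 ± 0.43 (SD, n = 4), or 21.2-fold lower than the pool, the largest change of the 59 entries. The size depended on the background correction, with a mean of -5.32 or 39.8-fold at a normexp offset of 0. All 4 fish were below the lowest of the 16 others, an HBM + S fish at -3.62. Guanidinoacetate N-methyltransferase makes creatine in the last step of its synthesis. It had -3.07, -2.60, -2.11 and -2.53 (mean -2.58 ± 0.40, SD, n = 4), a level that single fish of the other diets also reached. The other 2 entries of this role were methionine-R-sulfoxide reductase B2, which repairs oxidised methionine (mean -1.43), and gamma-glutamyltransferase 5, which splits the gamma-glutamyl bond of glutathione (-1.16).

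L-pipecolic acid oxidase, an enzyme of the pipecolate route of lysine breakdown, had -3.17, -3.32, -2.26 and -2.47 in PPC + S fish 1 to 4 (mean -2.81 ± 0.52, SD, n = 4). At a normexp offset of 0 its mean was -3.95. Lysine ketoglutarate reductase, which starts the other lysine route, was less changed (mean -0.92), as was alpha-aminoadipate aminotransferase (-0.91). Kynurenine 3-monooxygenase of tryptophan breakdown had a mean of -1.45 ± 0.17 (SD, n = 4), with a small spread between fish.

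Enzymes of valine breakdown were low too. Methylmalonate-semialdehyde dehydrogenase, which ends the valine route, had -2.66, -2.19, -1.50 and -1.19 in PPC + S fish 1 to 4 (mean -1.88 ± 0.66, SD, n = 4), and 3-hydroxyisobutyrate dehydrogenase, the step before it, had a mean of -0.90. All 4 fish were below 0 in both. Amidohydrolase domain containing 1, an enzyme of histidine breakdown (-1.18), and glycine cleavage system H protein (-1.13) lay between them.

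The entries of transamination, glutamate and ammonia had means of -1.81 to -0.75. They were 4-aminobutyrate aminotransferase (-1.81), aspartate aminotransferase, cytoplasmic (-1.77) and its mitochondrial counterpart (-0.75), ammonium transporter Rh type B (-1.55) and D-amino-acid oxidase (-1.49). The cytoplasmic aspartate aminotransferase had the lower ratio of the pair in each of the 4 fish. Ammonium transporter Rh type B was the most uneven of them, with -3.14 and -2.39 in fish 1 and 2 against -0.08 and -0.60 in fish 3 and 4.

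At the offset of 50 the folate and purine entries had smaller changes than the section median of -1.18. The mean of diamine acetyltransferase 2 was close to that median. Diamine acetyltransferase 2, which acetylates thialysine, had a mean of -1.18, folylpolyglutamate synthase -0.92 and gamma-glutamyl hydrolase, which shortens the folate tail, -0.87. Adenylosuccinate synthase like 2 of purine synthesis had a small change and the smallest spread between fish at the offset of 50 (mean -0.73 ± 0.07, SD, n = 4), but a mean of -1.55 at a normexp offset of 0. Arginine N-methyltransferase 3, which methylates ribosomal protein, was the only entry of amino acid metabolism listed up, with 1.69, 1.096, 0.92 and 0.80 in PPC + S fish 1 to 4 (mean 1.13 ± 0.40, SD, n = 4).

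Among the transporters, the water channel aquaporin-8 was lowest. It had -4.67, -4.40, -2.30 and -2.90 in PPC + S fish 1 to 4 (mean -3.57 ± 1.15, SD, n = 4), which is 11.9-fold lower than the pool, whereas aquaporin FA-CHIP, the other water channel, had a mean of -0.94. The highest of the 4 fish was still far below the lowest of the 16 fish of the other diets, at -0.47. Both channels were lower in fish 1 and 2 than in fish 3 and 4.

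Of the amino acid and peptide carriers, sodium-dependent neutral amino acid transporter B0, the main apical carrier of neutral amino acids, had -3.85, -5.09, -1.44 and -2.02 in PPC + S fish 1 to 4 (mean -3.10 ± 1.68, SD, n = 4), 8.58-fold lower than the pool. Its value of -5.09 in fish 2 was the lowest of any entry in any fish. Solute carrier family 15 member 1, the proton-driven peptide carrier PEPT1, had a mean of -1.85 ± 0.68 (SD, n = 4). B0,+−type amino acid transporter 1, the exchanger of cystine and basic amino acids, had -1.68 ± 1.12, and the taurine transporter had -0.92 ± 0.48 (SD, n = 4 each). Sodium-coupled neutral amino acid transporter 2 went the other way, with 1.59, 1.32, 0.56 and 0.63 in fish 1 to 4 (mean 1.03 ± 0.51, SD, n = 4). It is a carrier known from mammalian cells to be induced when amino acids are scarce.

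The carriers of organic and inorganic ions were led by solute carrier family 13 member 3, a sodium-coupled dicarboxylate carrier. It had -3.70, -2.48, -1.04 and -0.92 in PPC + S fish 1 to 4 (mean -2.04 ± 1.31, SD, n = 4). Fish 1 and 2 were clearly apart from fish 3 and 4, and the lowest fish of the other diets, at -1.10, was below both of fish 3 and 4. Solute carrier family 22 member 7, an organic anion carrier (mean -1.63), sodium-dependent phosphate transport protein 2A (-1.60), monocarboxylate transporter 9 (-1.60) and the sulfate transporter (-1.52) had nearly the same mean. At a normexp offset of 0 their means were farther apart, at -2.19, -1.97, -1.65 and -2.09 in the same order. Multidrug resistance associated protein 2, an apical export pump for conjugates, was listed up and very uneven, with 2.08, 1.46, 0.07 and 0.42 in fish 1 to 4 (mean 1.01 ± 0.93, SD, n = 4).

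Transcobalamin-2, which carries vitamin B12, had -3.02, -2.57, -1.06 and -1.17 in PPC + S fish 1 to 4 (mean -1.96 ± 0.99, SD, n = 4). The copper pump ATPase, Cu++ transporting, beta had a mean of -1.03. The sugar carriers were facilitated glucose transporter, member 8 (mean -1.63), sodium/glucose cotransporter 2 (-1.03) and facilitated glucose transporter member, 11 (-0.77). TPCN1, a calcium channel of endosomes and lysosomes, had a mean of -1.76.

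Chloride channel protein 3 and solute carrier family 12, member 8 completed the entries listed up. The first, a chloride-proton exchanger of endosomes, had 0.83, 2.10, 1.58 and 0.40 in PPC + S fish 1 to 4 (mean 1.23 ± 0.76, SD, n = 4), and the second, of the cation-chloride cotransporter family, had 1.70, 1.33, 0.77 and 0.67 (mean 1.12 ± 0.48, SD, n = 4). In chloride channel protein 3 the highest values were those of fish 2 and 3, which is not the order seen in most entries.

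The 4 PPC + S fish differed in the size of their ratios. Both of fish 1 and 2 lay below both of fish 3 and 4 in 49 of the 53 entries listed down (31% of all probes tested), and above them in 5 of the 6 listed up (29.9% of all probes). This included 15 of 15 proteases, 18 of 21 entries of amino acid metabolism and 16 of 17 transporters listed down. Over the entries listed down, fish 1 and 2 minus fish 3 and 4 had a median of -1.11 and ranged between -2.74 and -0.01. The same difference had medians of -0.22 in SFM + S, 0.07 in CG + S, 0.17 in RSM + S and 0.06 in HBM + S. Over all 59 entries the separation, in the listed direction, was seen in 54 entries in PPC + S, against 23 in SFM + S, 18 in HBM + S, 6 in CG + S and 6 in RSM + S, entries lacking a fish not counted. In SFM + S the difference was below 0 in 36 of the 53 entries listed down. For these 4 diets the share of all probes was not taken, and nothing about the entries is read from these counts. The exceptions in PPC + S were kynurenine 3-monooxygenase, glycine cleavage system H protein, adenylosuccinate synthase like 2, facilitated glucose transporter member, 11 and chloride channel protein 3.

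The mean of fish 1 and 2 had the listed direction in 59 of 59 entries and passed 1.6-fold in 59. The mean of fish 3 and 4 also had it in 59, and passed 1.6-fold in 40. The entries were chosen on these arrays and the share of all probes was not taken, so nothing is read from these counts. As fish 3 and 4 are on the turned arrays, a difference between fish and one between array directions cannot be told apart, and the share of tanks in it was not tested. Across the 53 entries listed down, Pearson's r between single PPC + S fish was 0.60 to 0.89, highest for fish 1 with fish 2. These points share the arrays and the pool, and genes are not independent replicates.

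**Figure D2:**
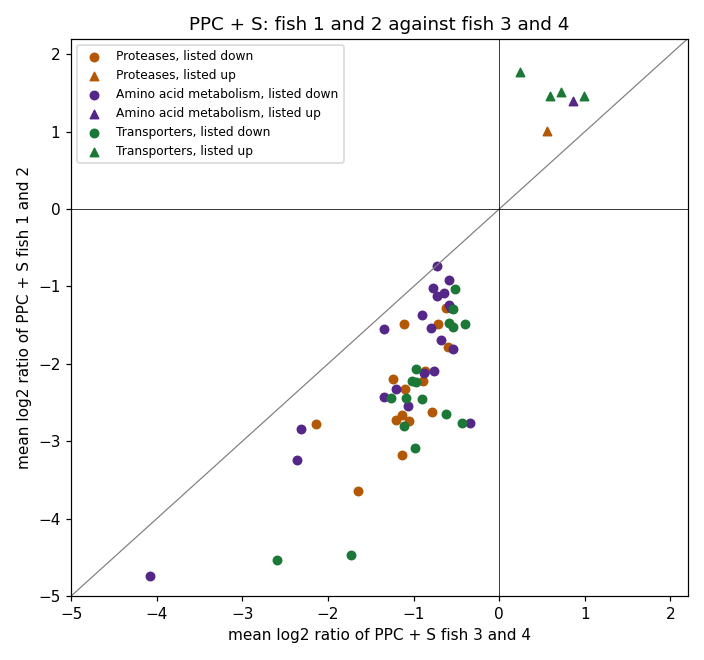
Mean log2 ratio of PPC + S fish 1 and 2 (vertical axis) against that of PPC + S fish 3 and 4 (horizontal axis) for the 59 entries, coloured by section, with the line of equal values in grey. Points listed down lie below the line and those listed up above it, with adenylosuccinate synthase like 2 nearly on it and cysteine dioxygenase type 1 at the lower left.

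Markers of enterocytes and of leukocytes were described on the same arrays. The markers come from the study's own PPC + S lists, and were tied to probes in the same way. Their direction in PPC + S was thus set by that choice, and nothing is read from it. All 6 enterocyte markers (apolipoproteins A-I-1, A-I-2, A-IV and B, intestinal fatty acid-binding protein and 2-acylglycerol O-acyltransferase 2-A) were lower in PPC + S fish, where the log2 ratio of their summed level ranged between -3.07 and -1.07. Of 9 leukocyte markers, 7 could be tied and 7 were higher, with a summed log2 ratio of 0.77 to 2.59. Median marker values in PPC + S fish 1 to 4 were -2.84, -2.43, -0.88 and -1.21 for enterocytes and 2.15, 2.04, 0.60 and 0.86 for leukocytes. Fish 1 and 2 were both below fish 3 and 4 in 31% of all probes tested and both above them in 29.9%. As fish 3 and 4 are on the turned arrays, fish and array direction cannot be told apart here either. In the 16 other fish the summed log2 ratios ranged between -1.04 and 0.32 for enterocytes and between -0.79 and 0.89 for leukocytes. By diet, the 6 enterocyte markers were all lower in SFM + S, where the summed log2 ratio was -1.04 to -0.25. Of the 6, 5 were lower in CG + S (-0.23 to 0.19), 5 in HBM + S (-0.38 to 0.32) and 4 in RSM + S (-0.48 to 0.27). Of the 7 leukocyte markers, 7 had a lower mean in CG + S (summed log2 ratio -0.79 to 0.89) and 5 in RSM + S (-0.13 to 0.16). In SFM + S 5 were lower (-0.55 to 0.25), and in HBM + S 4 (-0.37 to 0.27). For both marker lists the share of all probes was not taken, and nothing is read from these counts. The part of cell composition in the changes of the 59 entries was not tested.

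In the 4 other diets, which the choice of entries did not use, no entry passed the limits. By limma with Benjamini-Hochberg adjustment over the 17143 probes and the limit of 1.6-fold, 0 of 59 entries were called in CG + S (0.0175% of all probes), 0 in RSM + S (0.0175%), 0 in HBM + S (0.0117%) and 0 in SFM + S (0.0117%). The lowest adjusted p of any entry was 0.109, for L-pipecolic acid oxidase in SFM + S. Without adjustment, at a p under 0.05 and the same fold limit, limma gave 4 entries in SFM + S (0.28% of all probes), 2 in CG + S (0.21%), 0 in RSM + S (0.467%) and 0 in HBM + S (0.28%). L-pipecolic acid oxidase and solute carrier family 15 member 1 were among them in both diets, and chloride channel protein 3 and lactase-phlorizin hydrolase preproprotein were the other entries of SFM + S. Unadjusted, the methods' t-test gave 2 entries in SFM + S (0.175% of all probes), 0 in CG + S (0.0933%), 0 in RSM + S (0.327%) and 0 in HBM + S (0.0992%).

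Over the 4 fish, the section medians of these diets were near 0. Those of the proteases listed down lay between -0.08 and 0.04, those of amino acid metabolism between -0.07 and -0.02, those of the transporters between -0.15 and 0.06, and those of the entries listed up between -0.15 and 0.03. In HBM + S the protease median averaged opposite signs, with 0.16 in fish 1 and 2 and -0.35 in fish 3 and 4, and it was 0.21 with the dyes as stated. Over the 4 diets single fish had section medians of -0.54 to 0.32, against -2.51 to -0.81 in PPC + S fish for the sections listed down.

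**Figure D3:**
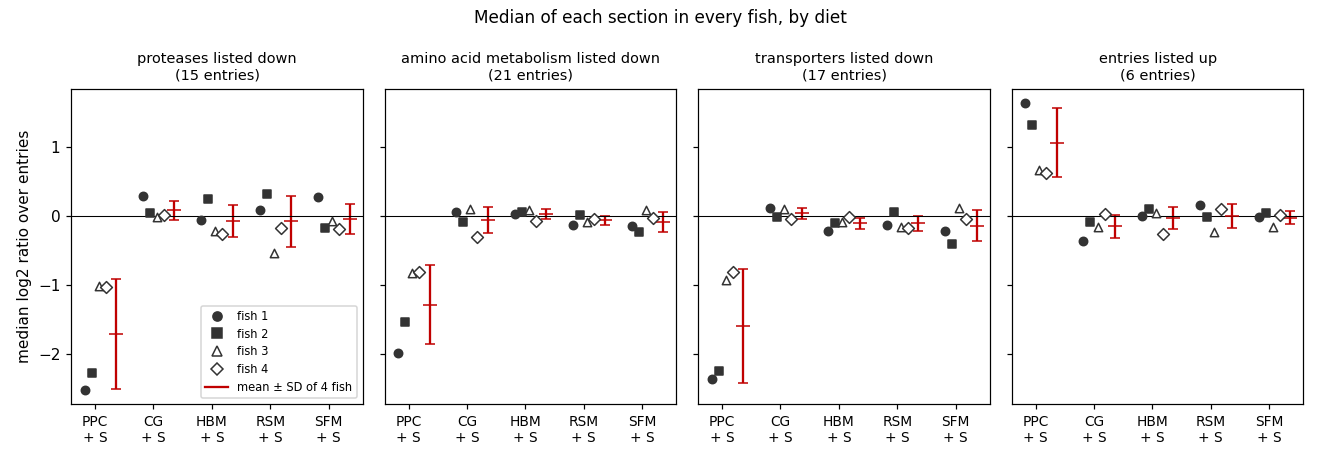
Median log2 ratio over the entries of a section (vertical axis) in every fish of the 5 diets (horizontal axis), with the mean and SD of the 4 fish in red. PPC + S fish lie at -2.51 to -0.81 in the 3 sections listed down, and the 16 other fish scatter around 0.

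In the mean of the 4 other diets, fitted over their 16 arrays with limma, 0 entries passed an adjusted p of 0.05 in either direction, where 0.0292% of all probes were lower and 0% higher. This call depended on the array direction. With fish 1 and 2 alone 13 entries passed (20.9% of all probes), with fish 3 and 4 alone 14 (20.8%), and with the dyes as stated 16 (38% of all probes), so that these counts were near or below the share of all probes. Monocarboxylate transporter 9 was the 1 entry that passed with both pairs of fish in the same direction, with -0.61 in fish 1 and 2 (adjusted p 0.0272 by limma) and -0.36 in fish 3 and 4 (adjusted p 0.027 by limma). It was chosen after its values were seen, and with the dyes as stated its mean was -0.13. Over all 4 fish, without adjustment 11 entries were lower at a p under 0.05 (3.86% of all probes) and 3 higher (3.84%). The mean was below 0 in 35 of the 53 entries listed down, against 50.1% of all probes, and above 0 in 1 of the 6 listed up. It was below 0 in 34 of 53 with fish 1 and 2 alone (52.6% of all probes) and in 32 of 53 with fish 3 and 4 alone (47.2%). Over all 4 fish these were, by section, 10 of 15 proteases, 15 of 21 entries of amino acid metabolism and 10 of 17 transporters. The lowest p over all 4 fish was that of monocarboxylate transporter 9, and its adjusted p was 0.119.

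Whether the change depended on the plant protein was tested among these diets. The moderated F test among the 4 diets called 0 of 59 entries (0.0233% of all probes) after adjustment and 3 without it (5.02% of all probes), the lowest adjusted p being 0.821. Those 3 were lysine ketoglutarate reductase, gamma-glutamyltransferase 5 and solute carrier family 13 member 3, named after their values were seen.

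A few entries varied strongly between single fish of the other diets, and 8 of the 59 are plotted across diets, picked after their values were seen. Over the 59 entries, the SD between fish within these diets had a median of 0.31 on the log2 scale. It was 1.95 in guanidinoacetate N-methyltransferase, 1.16 in cysteine dioxygenase type 1 and 1.08 in lactase-phlorizin hydrolase preproprotein.

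**Figure D4:**
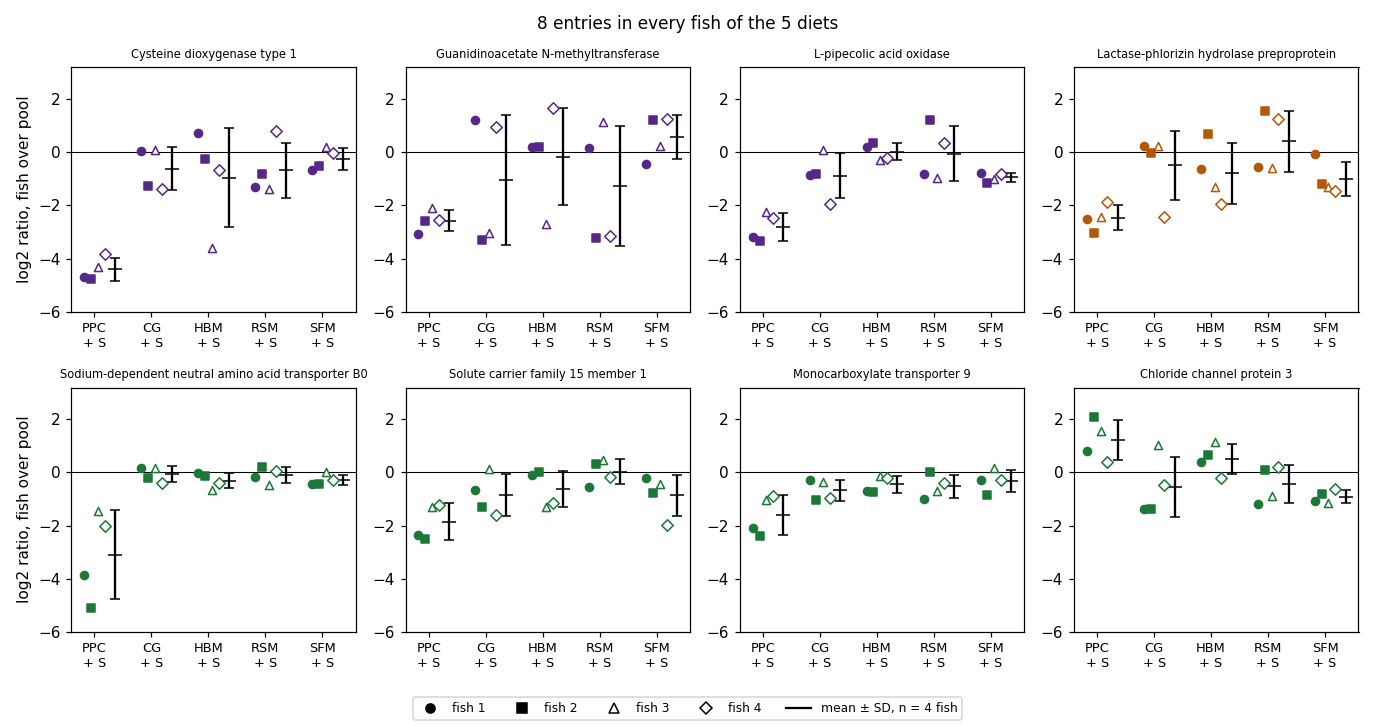
Log2 ratio of fish over pool (vertical axis) in every fish of the 5 diets (horizontal axis) for 8 entries, with mean and SD in black. In PPC + S the 7 entries listed down are low in all 4 fish, while guanidinoacetate N-methyltransferase has single fish at or below -2.71 in RSM + S, HBM + S and CG + S as well.

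Guanidinoacetate N-methyltransferase fell into levels that were far apart. Its log2 ratios were 1.21, -3.31, -3.03 and 0.97 in CG + S fish 1 to 4, and 0.19, 0.20, -2.71 and 1.67 in HBM + S fish. They were 0.17, -3.22, 1.14 and -3.15 in RSM + S fish, and -0.45, 1.24, 0.24 and 1.24 in SFM + S fish. Of the 16 fish, 5 lay between -3.31 and -2.71 and 11 between -0.45 and 1.67, with a gap of 2.26 and no fish in it. The 5 low fish were on both array directions. All 4 PPC + S fish, at -3.07 to -2.11, were close to the low level.

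Cysteine dioxygenase type 1 also had negative means in all 4 diets, with a wide spread. It had 0.06, -1.25, 0.10 and -1.37 in CG + S fish 1 to 4 (mean -0.62), and 0.73, -0.26, -3.62 and -0.65 in HBM + S fish (mean -0.95). It had -1.30, -0.83, -1.39 and 0.81 in RSM + S fish (mean -0.68), and -0.66, -0.52, 0.22 and -0.03 in SFM + S fish (mean -0.25). The value of -3.62 in HBM + S fish 3 was the only one of the 16 below -1.39, and this fish was also the low one of its diet for guanidinoacetate N-methyltransferase. Over the 4 diets the mean was -0.62, with an adjusted p of 0.586 by limma.

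L-pipecolic acid oxidase had means well below 0 in SFM + S and CG + S only, but was called in no diet. A difference among the 4 diets was not called either (unadjusted p 0.085 by the moderated F test). In SFM + S it had -0.76, -1.16, -1.01 and -0.83 in fish 1 to 4 (mean -0.94 ± 0.18, SD, n = 4, adjusted p 0.109 by limma), and in CG + S -0.85, -0.82, 0.11 and -1.95 (mean -0.88, adjusted p 0.916 by limma). Its means were 0.02 in HBM + S and -0.05 in RSM + S. The 4 SFM + S fish lay close together, and all of them were above the 4 PPC + S fish.

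Solute carrier family 15 member 1 had means of -0.86 in SFM + S, -0.85 in CG + S, -0.63 in HBM + S and 0.02 in RSM + S. Its lowest fish of these diets, SFM + S fish 4 at -1.96, was below PPC + S fish 3 and 4, at -1.29 and -1.24. In that fish the median of the enterocyte markers was -1.21, and in CG + S fish 4, where this carrier was at -1.60, it was -0.85. In CG + S fish 2, however, the carrier was at -1.29 and the marker median at 0.27. HBM + S fish 3 and 4 had -1.30 and -1.13 for the carrier, with marker medians of -0.39 and -0.33. RSM + S fish 3 had a marker median of -0.45, but its carrier value of 0.49 was the highest of the 16 fish. The part of these markers in the values of the carrier was not tested. Monocarboxylate transporter 9 had negative means in all 4 diets, with values of -0.66 in CG + S, -0.53 in RSM + S, -0.45 in HBM + S and -0.31 in SFM + S. It was below 0 in 14 of the 16 fish. Over the 4 diets solute carrier family 15 member 1 had a mean of -0.58 (adjusted p 0.372 by limma) and monocarboxylate transporter 9 one of -0.49 (adjusted p 0.119 by limma).

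Chloride channel protein 3, listed up in PPC + S, had -1.09, -0.81, -1.15 and -0.62 in SFM + S fish 1 to 4 (mean -0.92 ± 0.25, SD, n = 4, adjusted p 0.311 by limma). It had a mean of 0.50 in HBM + S, where 3 of 4 fish were above 0. Lactase-phlorizin hydrolase preproprotein had means of -1.01 in SFM + S, -0.79 in HBM + S, -0.49 in CG + S and 0.42 in RSM + S. In CG + S its mean rested on fish 4, at -2.42, while the other 3 fish were between -0.01 and 0.25. Sodium-dependent neutral amino acid transporter B0 and aquaporin-8, both among the lowest in PPC + S, had means over the 4 diets of -0.19 and -0.16 (adjusted p 0.489 and 0.55 by limma).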

How the data were processed

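RNA was measured on 20 arrays, 4 fish of each diet against its pool. The authors deposited median spot and background intensities, not normalized, which per the file headers come from Feature Extraction 10.7.1.1 (the labels name 9.6.1 and the methods another program), with dye-normalized log10 ratios of that software, and Lowess-normalized log2 ratios. Flags of the software, deposited in the same files as other columns, were used as filters. Spots flagged as outliers (2.02% to 3.81% per array) were left out. Normexp with an offset of 50, loess within arrays and averaging of both spots of a probe were run with limma 3.58.1 in R 4.3.3. A probe was tested when well above background in either channel on 3 or more arrays of some diet. The share of probes above background was 58.9% to 81.8%, and precision is limited by the number of arrays. Arrays were turned by their correlation with the authors' values.

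Each diet was fitted alone against 0 with limma. As fish of 1 tank were taken as independent, p can be too small. Every entry tied to a probe is named. Values of single fish are given, within a section, for the 4 lowest entries listed down and all listed up, and others so shown were picked after their values were seen. The entries, roles and marker lists were chosen with earlier results of these data known. Tests were checked on simulated data. Fish numbers recur across diets with no label that ties them. As same-numbered fish of the 4 other diets deviated together across probes in every pair (r 0.14 to 0.62), they were treated as paired in an alternative, though number and array direction go together (opposite directions: r -0.55 to 0.02). Sequences and genome positions of the probes were not analysed here.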

Additional observations from a re-analysis of the deposited data

Results flagged for a closer look

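There were 315 sets (59 entries and 4 section medians, in 5 diets each) of 4 fish, or of 3 for a few entries in CG + S. Of these, 7 sets of 4 fish had 1 fish far from the other 3, with a gap to the nearest beyond Dixon's critical value for groups of 4. Chance marks about 1 in 20 such sets. Lactase-phlorizin hydrolase preproprotein had -2.42 in CG + S fish 4, against -0.01 to 0.25 in the other 3. Facilitated glucose transporter member, 11 had -1.47 in PPC + S fish 1 (others -0.60 to -0.43) and 0.68 in CG + S fish 1 (others -0.08 to 0.01). 3-hydroxyisobutyrate dehydrogenase had -0.57 in PPC + S fish 4 (others -1.04 to -0.98). Lysine ketoglutarate reductase had -0.13 in HBM + S fish 3 (others 0.42 to 0.52). Sodium/glucose cotransporter 2 had 0.52 in RSM + S fish 2 (others -0.29 to -0.16). Peptidase D had -0.065 in CG + S fish 3 (others 0.32 to 0.39).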

How the results depend on the processing

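The 59 entries kept the listed direction of their PPC + S mean under 7 other ways of processing the arrays, the dyes as stated included. All 7 use the arrays the entries were chosen on. Among them are the authors' processed values, where the direction was set by that choice. With the dyes as stated fish 3 and 4 change sign, and the direction of the mean rests on the larger ratios of fish 1 and 2. Nothing is therefore read from the kept directions. With the dyes as stated, the PPC + S medians were -0.61 for proteases, -0.36 for amino acid metabolism and -0.63 for transporters listed down and 0.33 for entries listed up, the protease median of HBM + S was 0.21, the transporter median of RSM + S 0.093, and 16 entries passed in the mean of the 4 other diets. The scanner software's own log ratios gave a transporter median of -0.0037 in HBM + S. A normexp offset of 0 raised the PPC + S fold of 4 entries over 1.5 times (cysteine dioxygenase type 1, L-pipecolic acid oxidase, lactase-phlorizin hydrolase preproprotein and adenylosuccinate synthase like 2), the scanner software's ratios did so for 6, and with the dyes as stated 48 were smaller by as much. Without adjustment, limma gave 2 entries in CG + S, 4 in SFM + S, 14 in the mean of the 4 diets and 3 among them, and the methods' t-test gave 2 in SFM + S.

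An alternative chosen after seeing the data used arrays of 1 direction. With fish 1 and 2 only, 13 entries passed in the mean of the 4 diets, and with fish 3 and 4 only 14, while 5 passed with both, 1 of them in the same direction. With fish 3 and 4 only, 4 entries passed in HBM + S. The share of all probes was not taken for this count, nor for the entries that passed with both pairs. Nothing is read from these counts. With fish 1 and 2 only, medians were 0.19 for proteases in CG + S, 0.16 for proteases and 0.067 for entries listed up in HBM + S, and -0.20 for amino acid metabolism in SFM + S. With fish 3 and 4 only, they were -0.35 for proteases and 0.081 for amino acid metabolism in HBM + S and -0.18 for transporters in RSM + S. The cause was not tested.

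With fish number as a replicate block, 0 entries passed in the mean of the 4 diets and 0 differed among them, so the paired fit changed no call of an entry, while over all probes it called 25 lower and 9 higher, against 5 and 0 without it. Leaving out single fish gave 0 entries in every diet, in the mean of the 4 diets and among them. With 4 fish per diet and 1 pool as control, changes of single entries can go uncalled, also where they exceed the spread between fish. L-pipecolic acid oxidase in SFM + S (mean -0.94 ± 0.18, SD, n = 4) was not called, with an adjusted p of 0.109 by limma.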
